A study of Homo sapiens with 10 samples.

Results

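Genes of histone lysine methyltransferases, histone demethylases, zinc-dependent histone deacetylases and ATP-dependent chromatin remodelers were compared between cells with a control siRNA and cells with an siRNA against USP9X. They were picked by symbol, as every line of the count table named KDM, KMT2, KMT5, SETD, HDAC, CHD, EZH or SMARC with a number of that family. The rule used no measured value. It found 68 genes among 58735 lines, of which KDM5D, on the Y chromosome, is given no value here. The other 67 passed the filter on low counts. They comprised 7 KMT2 and SETD1 genes (KMT2A to KMT2E, SETD1A and SETD1B), 10 other SET-domain enzymes and both EZH genes. The rest were 17 demethylases, 11 deacetylases, 9 CHD remodelers and 11 SMARC genes. Of the 7 KMT2 and SETD1 genes, all but KMT2E encode known methyltransferases of histone H3 lysine 4.

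Chromatin enzymes set how tightly DNA is packed around histones. Methyltransferases add methyl groups to histone lysines and demethylases take them off. A methyl mark on lysine 4 of histone H3 is known from active promoters and enhancers, whereas marks that the Polycomb repressive complex PRC2 places are known from silenced genes. Deacetylases remove acetyl groups, which generally closes chromatin, and remodelers of the CHD and SMARC families use ATP to slide, space or evict nucleosomes.

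RNA was sequenced from HCMECs, labelled as a brain endothelial cell line, in 10 libraries. The 5 siCtrl libraries came from cells transfected with control siRNA and the 5 siUSP9X libraries from cells transfected with siRNA against USP9X, a deubiquitinase. Transfection lasted 48 h in both groups, and every culture then received Wnt3a, a Wnt ligand, for 12 h. No cells without Wnt3a were analysed here, and the labels name neither the siRNA sequences nor separate cultures. A p-value here reflects how much these 10 libraries differ, and part of that may be technical.

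Library totals ran from 15958362 to 26467787 counts. USP9X itself lay at 283 to 416 CPM (counts per 1000000 counts of the library) in siCtrl and 20.7 to 68.8 CPM in siUSP9X (log2 fold change -3.28 ± 0.32, SE, edgeR adjusted p = 0.000403). The siUSP9X replicate 2 library, written siUSP9X-2 below, stood apart. The share of counts on 82 ribosomal protein genes was 1.96% in it and between 4.1 and 4.77% in the rest of its group. Results are therefore given with all 10 libraries and again without it. Of 14 endothelial markers, 9 stayed under 1 CPM in every library, among them PECAM1, VWF, KDR and CLDN5. The markers summed to 319 to 392 CPM in siCtrl and 158 to 364 CPM in siUSP9X. The sum of 5 epithelial markers (KRT8, KRT18, EPCAM, and CDH1 and KRT19, which stayed under 1 CPM) was 3317 to 4179 CPM in siCtrl and 2031 to 2759 CPM in siUSP9X. The 4 leukocyte markers stayed under 1 CPM throughout. The part of these shifts in the results below was not tested, and fewer cells of a type and less RNA per cell cannot be told apart in bulk RNA.

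Across all 10 libraries, 6 of the 67 genes rose with the USP9X siRNA and 1 fell (quasi-likelihood test of edgeR, with Benjamini-Hochberg adjusted p under 0.05 over all 13934 genes tested). The genes that rose were the demethylases KDM7A, KDM5B and KDM6B, the PRC2 enzyme EZH1 and the remodelers CHD7 and CHD9. The demethylase KDM1B fell. The 6 increases were 8.96% of the 67 genes, against 4.09% called higher among all genes, and the single decrease was 1.49%, against 3.22%. No call was made for 60 genes, and 25 of the 67 had an unadjusted p under 0.05. The share of all genes with such a p was not counted. Counts of this kind, here and below, therefore have no background to be read against. The median log2 fold change was 0.15 over the 67 genes and 0.03 over all genes.

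Without siUSP9X-2 all 7 calls held and 16 genes rose (23.9%, against 11.9% of all genes) while 3 fell (4.48%, against 11.5%). The added increases were KMT2C, KMT2E, SETD5, KDM5A, KDM4A, HDAC2, HDAC4, HDAC9, CHD2 and SMARCC1, and the added decreases were SETD7 and SMARCB1. The median log2 fold change was then 0.13 over the 67 genes and 0.01 over all genes. The sign turned for 6 genes, KMT5B, KDM4C, CHD4, SMARCA2, SMARCA4 and SMARCE1, none of them called in either edgeR fit. Below, "either fit" means the edgeR fits with and without siUSP9X-2. Groups of 5 against 5 did not overlap for 10 genes with siUSP9X above (14.9%, against 7.79% of all genes) and 3 with siUSP9X below (4.48%, against 6.85%).

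**Figure D1:**
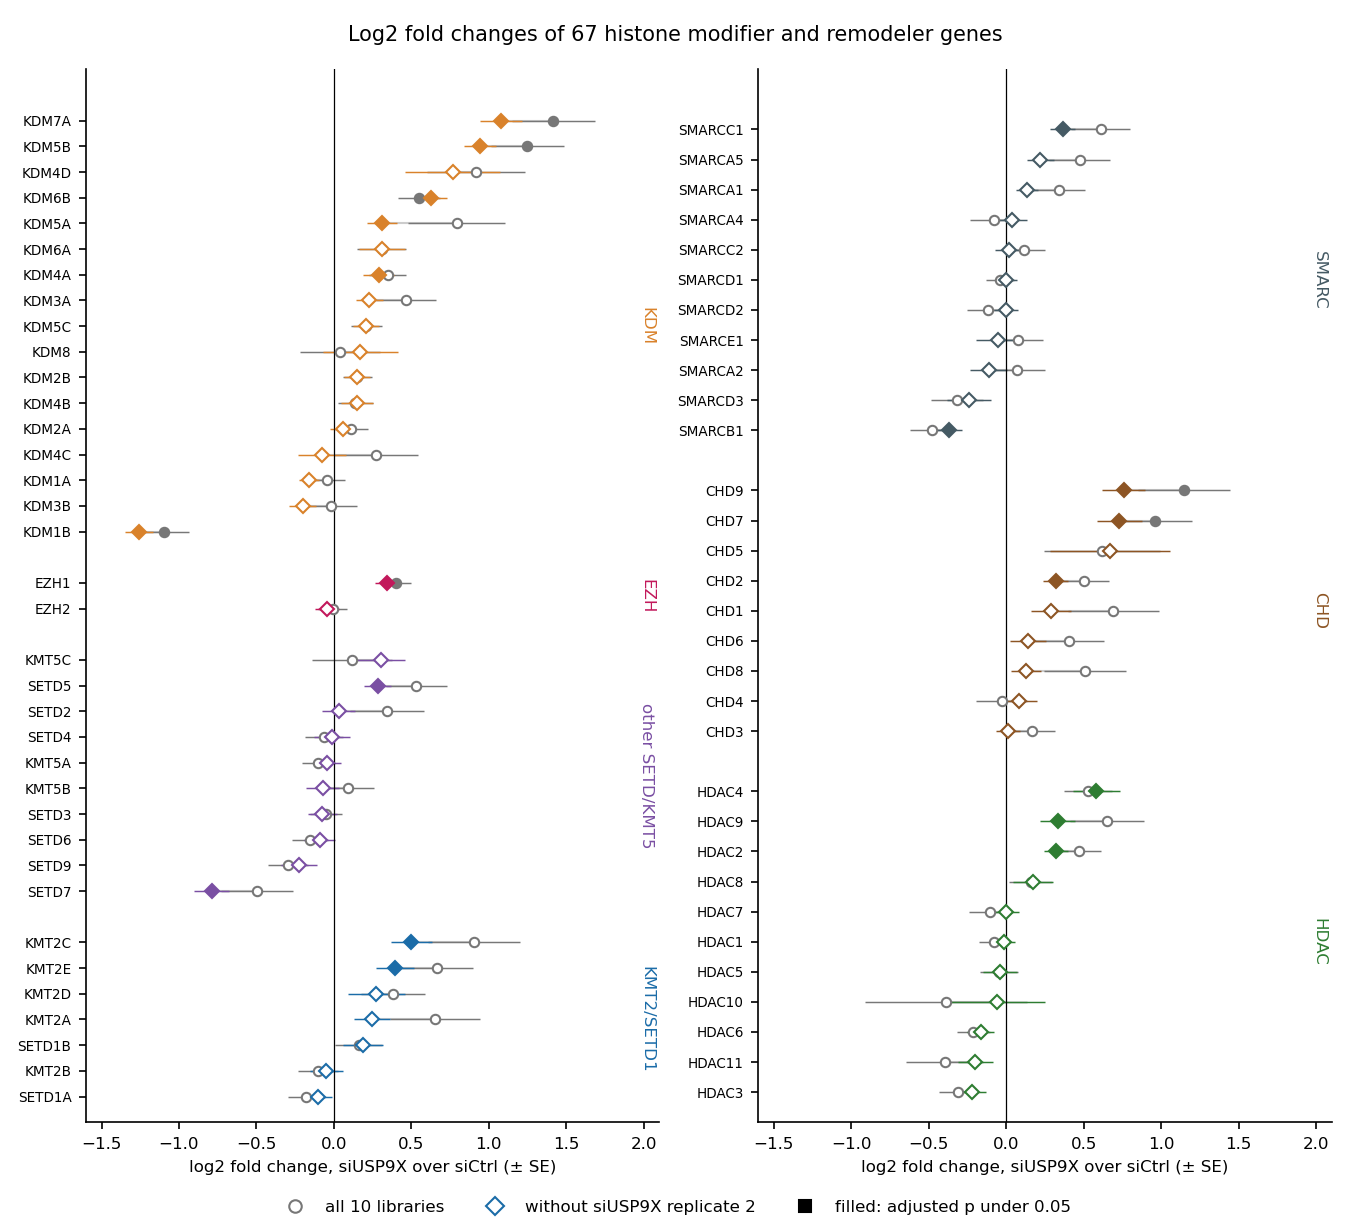
Log2 fold change of siUSP9X over siCtrl (x axis, ± SE) for each of 67 genes (y axis), grouped by enzyme class. Circles use all 10 libraries and diamonds leave out siUSP9X replicate 2; filled symbols passed an adjusted p of 0.05. KDM1B lies farthest to the left, at -1.09 and -1.26, and KDM7A farthest to the right, at 1.42 and 1.08.

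Among the demethylases, 3 of 17 rose and 1 fell. KDM1B removes methyl groups from lysine 4 of histone H3 with flavin as cofactor. Its gene (ENSG00000165097.14, chromosome 6, 18155329 to 18223853, plus strand, GRCh38) had 77.0, 60.5, 68.9, 66.3 and 73.0 CPM in siCtrl replicates 1 to 5. The siUSP9X replicates 1 to 5 had 30.5, 46.5, 30.4, 27.2 and 27.3 CPM. All siUSP9X values were below all siCtrl values, and siUSP9X-2 was the closest to them. The fold change was 2.13-fold down (log2 -1.09 ± 0.16, SE, edgeR adjusted p = 0.00260) and 2.39-fold down without siUSP9X-2 (log2 -1.26 ± 0.09, SE, edgeR adjusted p = 4.72e-08). The call survived the removal of any single library. KDM1A, the other enzyme of this flavin-dependent family, had 144 to 148 CPM in siCtrl and 121 to 186 CPM in siUSP9X, and was not called (log2 fold change -0.04 ± 0.12, SE). Only siUSP9X-2 exceeded the siCtrl range. Without it the 4 siUSP9X libraries, at 121 to 134 CPM, lay below all siCtrl libraries, still with no call (log2 fold change -0.16, edgeR adjusted p = 0.0904).

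The largest increases among the demethylases were in KDM7A and KDM5B. KDM7A, a jumonji enzyme that acts on lysines 9 and 27 of histone H3, maps to chromosome 7, 140084746 to 140177035, minus strand (ENSG00000006459.10). It had 11.3, 7.56, 8.5, 7.57 and 8.59 CPM in siCtrl and 19.6, 42.8, 18.9, 14.8 and 20.1 CPM in siUSP9X. The groups did not overlap, and siUSP9X-2 was more than 20 CPM above the other siUSP9X libraries. The increase was 2.67-fold (log2 1.42 ± 0.27, SE, edgeR adjusted p = 0.0115), and 2.11-fold without siUSP9X-2 (log2 1.08 ± 0.13). KDM5B removes lysine 4 methylation and lies on chromosome 1, 202724495 to 202809470, minus strand (ENSG00000117139.17). It had 58.6, 43.2, 45.6, 57.3 and 61.4 CPM in siCtrl and 104, 223, 96.0, 99.6 and 110.3 CPM in siUSP9X. Again the groups were separate, and siUSP9X-2 was far above the rest of its group. The increase was 2.38-fold (log2 1.25 ± 0.24, SE, edgeR adjusted p = 0.0116) and 1.93-fold without siUSP9X-2 (log2 0.95 ± 0.10). Both calls survived the removal of any single library.

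KDM6B, which clears the repressive methyl mark on lysine 27, rose in a different way. Its gene (ENSG00000132510.10, chromosome 17, 7839904 to 7854796, plus strand) had 29.9, 26.8, 32.2, 36.7 and 33.8 CPM in siCtrl and 42.4, 36.2, 46.0, 54.2 and 54.8 CPM in siUSP9X. Here siUSP9X-2 was the lowest of its group and the only library to fall within the siCtrl range. The log2 fold change was 0.55 ± 0.14 (SE, edgeR adjusted p = 0.0360) with all libraries and 0.63 ± 0.10 without siUSP9X-2 (adjusted p = 0.000298). When single libraries were removed, it was called only without siUSP9X-2, and the adjusted p ran from 0.0542 to 0.0927 without any other. KDM6A, which removes the same mark, had 8.37 to 13.8 CPM in siCtrl and 11.0 to 16.9 CPM in siUSP9X and was not called (log2 fold change 0.31 ± 0.16, SE).

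The remaining 13 demethylases were not called by edgeR with all 10 libraries, while DESeq2 called KDM4A and KDM4D higher (adjusted p = 0.0382 and 0.0371). KDM5A had 60.9 to 85.3 CPM in siCtrl and 102.5, 284, 92.8, 85.4 and 98.8 CPM in siUSP9X. The groups were barely separate, and siUSP9X-2 was far above the rest. Its log2 fold change was 0.79 ± 0.31 (SE, edgeR adjusted p = 0.132), and 0.31 ± 0.10 without siUSP9X-2, where it was called (adjusted p = 0.0280). KDM4A, which acts on lysines 9 and 36, had 22.3 to 31.1 CPM in siCtrl and 33.2 to 41.9 CPM in siUSP9X, with no overlap (log2 fold change 0.35 ± 0.12, SE, edgeR adjusted p = 0.0929; 0.29 and 0.0423 without siUSP9X-2). KDM5C, the most abundant demethylase by CPM, had 171 to 218 CPM in siCtrl and 205 to 246 CPM in siUSP9X (log2 fold change 0.21 ± 0.10, SE, adjusted p = 0.188). KDM4C changed sign with the choice of libraries, from 0.27 ± 0.27 with all of them to -0.07 ± 0.16 without siUSP9X-2, which held 15.5 CPM against 4.87 to 8.23 CPM in the rest of its group. KDM3B had a log2 fold change of -0.02, and -0.20 without siUSP9X-2. The 8 others (KDM2A, KDM2B, KDM3A, KDM4B, KDM4D, KDM8 and, above, KDM1A and KDM6A) had no call by edgeR with all libraries or without siUSP9X-2.

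**Figure D2:**
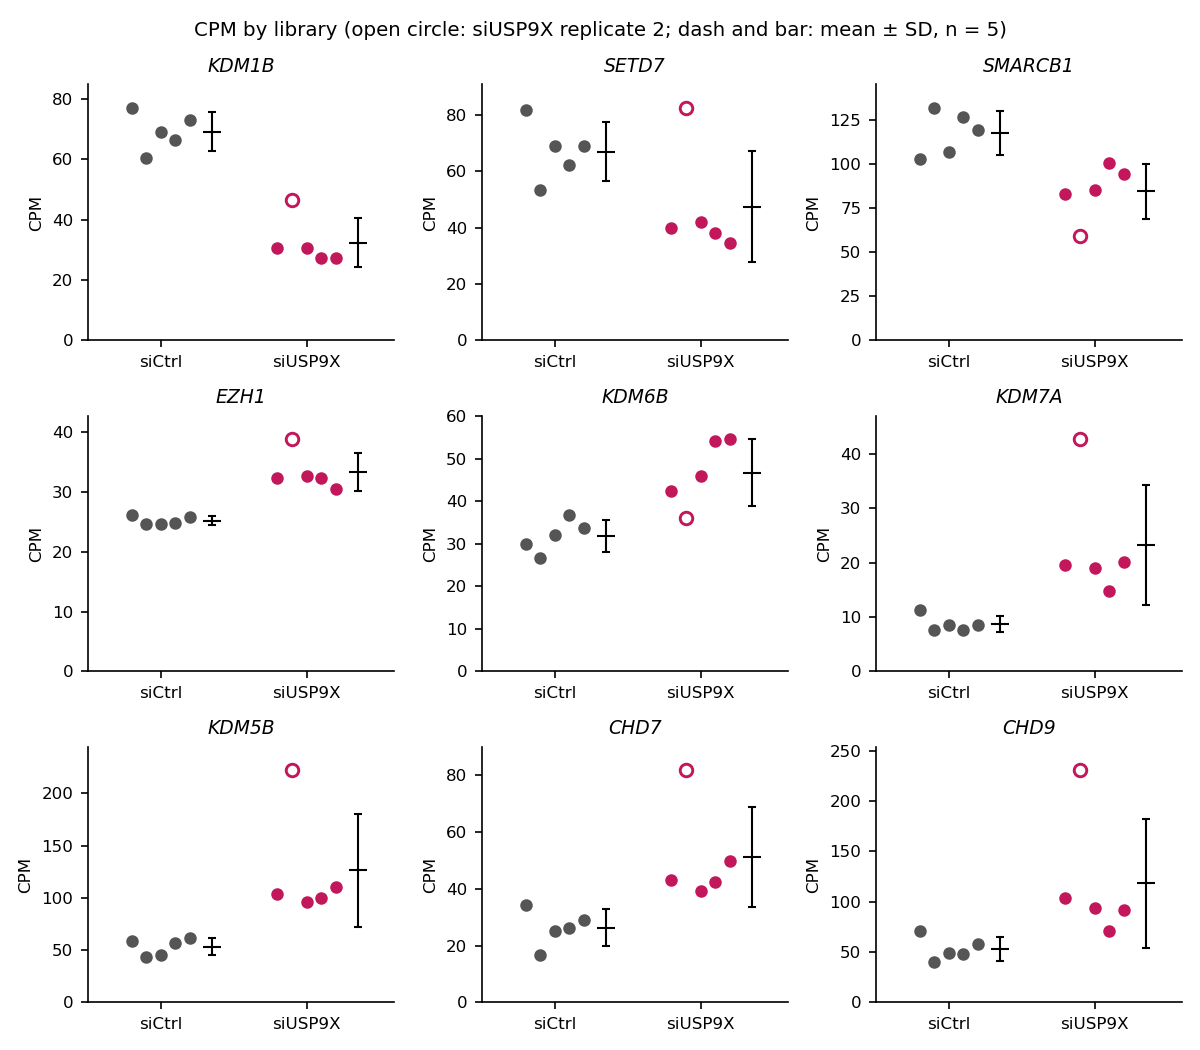
CPM (y axis) of 9 genes in each library of siCtrl and siUSP9X (x axis); each point is 1 library, open circles mark siUSP9X replicate 2, and the dash with its bar is the mean ± SD of 5 libraries. In SETD7 the open circle, at 82.5 CPM, sits at the level of the siCtrl libraries while the other 4 siUSP9X libraries sit at 34.7 to 41.9 CPM.

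Of the 10 other SET-domain enzymes, none was called with all 10 libraries by edgeR or DESeq2, and 2 had an unadjusted p under 0.05. SETD7 adds a single methyl group to lysine 4 of histone H3 and methylates other proteins too. It lies on chromosome 4, 139495941 to 139606699, minus strand (ENSG00000145391.13). Its libraries had 81.8, 53.2, 68.9, 62.1 and 68.9 CPM in siCtrl and 40.0, 82.5, 41.9, 38.2 and 34.7 CPM in siUSP9X. The other 4 siUSP9X libraries lay below every siCtrl library, and siUSP9X-2 lay above them all. With all libraries the log2 fold change was -0.50 ± 0.23 (SE, edgeR adjusted p = 0.184). Without siUSP9X-2 it was -0.79 ± 0.11 (adjusted p = 6.75e-05), a decrease of 1.73-fold. SETD5 had 120 to 165 CPM in siCtrl and 181, 339, 165, 162 and 189 CPM in siUSP9X. It was not called with all libraries (log2 fold change 0.53 ± 0.20, SE) and was called without siUSP9X-2 (0.28 ± 0.09, SE, adjusted p = 0.0262). The 8 others were called in neither fit. They included SETD2, which trimethylates lysine 36 of histone H3 (log2 fold change 0.34, and 0.03 without siUSP9X-2), and the 3 KMT5 enzymes of histone H4 lysine 20, with log2 fold changes of -0.10 for KMT5A, 0.09 for KMT5B and 0.12 for KMT5C.

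The 3′ untranslated regions of the 67 genes were searched on the sense strand for 4 words of 7 bases. One pair was AATCACA and, shifted by 1 base, the word ATCACAA. The other pair was AACTCTA and, shifted the other way, the word CAACTCT. The words had been picked earlier for their relation to the same fold changes, so nothing here is independent of them. At least 1 word occurred in 14 of the 67 genes (20.9%), against 3720 of 11917 tested genes with an annotated 3′ untranslated region (31.2%). Of the 3 genes that fell without siUSP9X-2, KDM1B and SETD7 held one and SMARCB1 did not. Of the 14 genes with a word, 2 fell and 5 rose without siUSP9X-2 (KMT2C, KMT2E, HDAC2, HDAC9 and CHD2), and of the 53 without one, 1 fell and 11 rose. For CAACTCT alone, 2 of 4 genes fell and 1 rose, with a median log2 fold change of -0.42 against 0.13 in the 63 genes without it. For AATCACA alone, 2 of 10 fell and 5 rose, with medians of 0.27 and 0.06. Its shifted partner ATCACAA went the other way in its medians, at -0.06 with it and 0.13 without it. Of 7 genes with ATCACAA, 1 fell and 2 rose. The 2 genes with AACTCTA were not called, and the medians were 0.05 with it and 0.13 without it. Over all tested genes such differences were smaller. There the medians were -0.0125 with CAACTCT and -0.00018 without it, and -0.0098 with AATCACA and 0.00037 without it. For ATCACAA they were 0.011 and -0.0027, and for AACTCTA -0.0226 and 0.0013. Sites of both kinds are shown, 5′ to 3′ as DNA letters from GENCODE release 29 (GRCh38), with the word or an overlapping pair in capitals. KDM1B sites lie at chr6:18222031-18222057 and chr6:18223405-18223431, plus strand. The SETD7 sites shown, which are not all of its sites, are chr4:139510425-139510450 and chr4:139509237-139509263, minus strand. The KMT2C site is chr7:152136597-152136623, minus strand, and the HDAC9 site shown is chr7:18998394-18998420, plus strand.
KDM1B site 1: gggaaatttgAATCACAtgttaaacct
KDM1B site 2: taacccaagaCAACTCTgatatttagg
SETD7 site 1: gccatgtgtAATCACAActgcagaaa
SETD7 site 2: gtcttcctccCAACTCTcttcatactc
KMT2C: ggttaaacggAATCACAgaatggtcca
HDAC9: ttaatgagttAATCACAcatactccca
The median log2 fold change without siUSP9X-2 was 0.20 in the 14 genes with a word and 0.08 in the 53 without. Over all tested genes it was -0.0018 with a word and -0.0007 without. Genes with a word had longer 3′ untranslated regions, with a median of 3.56 kb against 1.42 kb.

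The EZH genes encode the alternative catalytic subunits of PRC2, which methylates lysine 27 of histone H3. EZH1 (ENSG00000108799.12, chromosome 17, 42700275 to 42745049, minus strand) had 26.2, 24.6, 24.6, 24.7 and 25.9 CPM in siCtrl and 32.4, 38.9, 32.7, 32.4 and 30.5 CPM in siUSP9X. The siCtrl libraries spread over less than 2 CPM, and all siUSP9X libraries lay above them. EZH1 rose 1.32-fold (log2 0.40 ± 0.10, SE, edgeR adjusted p = 0.0292) and 1.27-fold without siUSP9X-2 (log2 0.34 ± 0.08). The call was lost without siCtrl replicate 2, 3, 4 or 5 or siUSP9X replicate 1 or 3 (adjusted p from 0.0561 to 0.0886). EZH2 had 71.5, 73.3, 65.3, 62.1 and 68.9 CPM in siCtrl and 68.3, 74.8, 65.6, 66.9 and 63.9 CPM in siUSP9X, and the log2 fold change was -0.01 ± 0.09 (SE, adjusted p = 0.965). The groups overlapped almost entirely.

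The KMT2 and SETD1 genes other than KMT2E encode catalytic subunits of COMPASS complexes. None of the 7 genes of this class was called with all libraries by edgeR, and 3 had an unadjusted p under 0.05. DESeq2 called 2 of them higher (it called 9.07% of all genes higher and 7.74% lower). KMT2C, which writes enhancer methylation (ENSG00000055609.17, chromosome 7, 152134922 to 152436005, minus strand), had 71.5, 37.8, 47.1, 53.7 and 59.6 CPM in siCtrl. It had 73.5, 199, 75.9, 71.1 and 84.7 CPM in siUSP9X. The 4 siUSP9X libraries besides siUSP9X-2 were close together, near or above the highest siCtrl library, and siUSP9X-2 was far higher. Parts of KMT2C have near-identical copies elsewhere in the genome, so its counts depend on how such reads were assigned. The log2 fold change was 0.90 ± 0.30 (SE, edgeR adjusted p = 0.0851), and 0.50 ± 0.13 without siUSP9X-2 (adjusted p = 0.0114). KMT2E had 30.5 to 48.5 CPM in siCtrl and 58.0, 103, 48.5, 42.3 and 51.7 CPM in siUSP9X. It was not called with all libraries (log2 fold change 0.67 ± 0.23, SE) and was called without siUSP9X-2 (0.39 ± 0.12, SE, adjusted p = 0.0252). KMT2D, the paralogue of KMT2C and the most abundant of the class by CPM, had 188, 87.3, 171, 190 and 179 CPM in siCtrl and 178, 272, 183, 199.8 and 228 CPM in siUSP9X. Its siCtrl replicate 2 was far below the other 4, and no call was made (log2 fold change 0.38 ± 0.21, SE, adjusted p = 0.240). KMT2A, KMT2B, SETD1A and SETD1B were not called in either fit, with log2 fold changes of 0.65, -0.10, -0.18 and 0.16.

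None of the 11 deacetylases was called with all libraries by edgeR, while 4 had an unadjusted p under 0.05 and DESeq2 called 2 higher. HDAC1, a class I enzyme and the most abundant of the 11, had 235 to 250.2 CPM in siCtrl and 228, 186, 238, 252 and 245 CPM in siUSP9X (log2 fold change -0.08 ± 0.10, SE, adjusted p = 0.602). Its close paralogue HDAC2 had 128 to 156 CPM in siCtrl and 170.3, 277, 190.0, 171.5 and 187 CPM in siUSP9X, all above siCtrl. HDAC2 was not called with all libraries (log2 fold change 0.47 ± 0.14, SE, edgeR adjusted p = 0.0676) and rose without siUSP9X-2 (0.32 ± 0.08, adjusted p = 0.00612). HDAC3, the class I enzyme of NCoR complexes, lay on the other side. All siUSP9X libraries, at 48.0 to 70.6 CPM, were below all siCtrl libraries, at 72.3 to 92.8 CPM, with no call in either fit (log2 fold change -0.31 ± 0.13, SE, edgeR adjusted p = 0.145).

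Of the class IIa deacetylases, which shuttle between nucleus and cytoplasm, HDAC4 and HDAC9 rose without siUSP9X-2. HDAC4 was low, with 4.13, 4.27, 5.35, 5.23 and 4.98 CPM in siCtrl and 8.35, 5.87, 7.15, 5.42 and 7.73 CPM in siUSP9X. The groups were just apart, and siUSP9X-2 was among the lower siUSP9X libraries. The log2 fold change was 0.53 ± 0.16 (SE, edgeR adjusted p = 0.0610), and 0.58 ± 0.15 without siUSP9X-2 (adjusted p = 0.00969). HDAC9 had 15.0 to 21.4 CPM in siCtrl and 20.05, 48.2, 20.4, 23.5 and 22.6 CPM in siUSP9X, and the groups overlapped (log2 fold change 0.65, and 0.33 without siUSP9X-2). HDAC5 and HDAC7 were not called. In all 3 genes of class IIb and IV, HDAC6, HDAC10 and HDAC11, siUSP9X-2 was the lowest siUSP9X library and no call was made, with log2 fold changes of -0.21, -0.39 and -0.40. HDAC10 shares 2763 bases of exon with MAPK12 on the same strand, so its low count is uncertain.

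The CHD remodelers had the highest class median, a log2 fold change of 0.51 over 9 genes, which was 0.29 without siUSP9X-2. CHD7, a reader of enhancer chromatin, and CHD9 belong to the CHD6 to CHD9 subfamily. CHD7 (ENSG00000171316.11) had 34.4, 16.6, 25.2, 26.1 and 29.1 CPM in siCtrl and 43.2, 81.8, 39.0, 42.2 and 49.8 CPM in siUSP9X. Every siUSP9X library exceeded every siCtrl library, and siUSP9X-2 was the highest. CHD7 rose 1.95-fold (log2 0.96 ± 0.23, SE, edgeR adjusted p = 0.0329) and 1.66-fold without siUSP9X-2 (log2 0.73 ± 0.15). Its call was lost without siCtrl replicate 2, 3, 4 or 5 or siUSP9X replicate 5 (adjusted p from 0.0669 to 0.0884). CHD9 (ENSG00000177200.17, chromosome 16, 53055033 to 53329150, plus strand) had 70.8, 40.1, 49.2, 48.0 and 58.3 CPM in siCtrl and 103.7, 231, 94.0, 70.7 and 91.4 CPM in siUSP9X. The groups overlapped only in that siUSP9X replicate 4 and siCtrl replicate 1 were nearly equal. CHD9 rose 2.22-fold (log2 1.15 ± 0.30, SE, edgeR adjusted p = 0.0403) and 1.69-fold without siUSP9X-2 (log2 0.76 ± 0.14). When single libraries were removed, the call held only without siCtrl replicate 1 or siUSP9X replicate 2 or 4, and the adjusted p ran from 0.0584 to 0.109 without each of the other 7.

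The subfamily's other genes, CHD6 and CHD8, were not called in either fit (log2 fold changes 0.41 and 0.51, and 0.14 and 0.13 without siUSP9X-2). CHD2 had 66.7 to 80.7 CPM in siCtrl and 92.2, 157, 88.5, 92.8 and 97.8 CPM in siUSP9X, and was called without siUSP9X-2 (log2 fold change 0.32 ± 0.08, SE, edgeR adjusted p = 0.00821). CHD1, whose chromodomains bind methylated lysine 4, was not called (0.69, and 0.29 without siUSP9X-2). Of the CHD3 to CHD5 group, the remodelers of the NuRD corepressor, none was called. CHD3, the most abundant CHD gene by CPM, had 219 to 277 CPM in siCtrl and 265, 395, 226, 258 and 253 CPM in siUSP9X. Its log2 fold change was 0.17 ± 0.15 (SE) with all libraries and 0.01 ± 0.08 without siUSP9X-2. CHD5 stayed under 1 CPM. CHD4 counts are uncertain, because the annotation places a same-strand gene, AC006064.6, over 5964 bases of CHD4 exon, and that gene is listed at 0.

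Among the 11 SMARC genes none was called with all libraries by edgeR, 3 had an unadjusted p under 0.05, and DESeq2 called 1 in each direction. SMARCC1, a scaffold subunit of BAF complexes and the most abundant gene of the 67 by CPM, lies on chromosome 3, 47585272 to 47782106, minus strand (ENSG00000173473.10). It had 321, 248, 285, 286 and 301 CPM in siCtrl and 366, 712, 343, 366 and 411 CPM in siUSP9X. All siUSP9X libraries lay above all siCtrl libraries. The log2 fold change was 0.61 ± 0.19 (SE, edgeR adjusted p = 0.0767), and 0.37 ± 0.08 without siUSP9X-2 (adjusted p = 0.00325). SMARCB1, the core subunit lost in rhabdoid tumours, went the other way (ENSG00000099956.19, chromosome 22, 23786931 to 23838008, plus strand). It had 103, 132, 107, 127 and 119.6 CPM in siCtrl and 83.0, 59.5, 85.3, 100.7 and 94.2 CPM in siUSP9X. The groups were separate, with siUSP9X-2 the lowest. The log2 fold change was -0.48 ± 0.14 (SE, edgeR adjusted p = 0.0640), and -0.37 ± 0.09 without siUSP9X-2 (adjusted p = 0.00554).

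The SMARC ATPases were not called in either fit. SMARCA4 and SMARCA2, the alternative motors of BAF complexes, had log2 fold changes of -0.08 and 0.07, and 0.04 and -0.11 without siUSP9X-2. The ISWI motors SMARCA5 and SMARCA1 had 0.47 and 0.34, and 0.22 and 0.13 without siUSP9X-2. SMARCC2 and the 3 SMARCD subunits had log2 fold changes from -0.32 to 0.12 and no call. SMARCE1 counts are uncertain in the same way as those of CHD4, since AC073508.2, listed at 0, covers 3697 bases of its exons. The counts given above for KMT2A and KDM4A share this uncertainty. The same-strand genes AP001267.5 and AL451062.3, both listed at 0, cover 5599 and 2077 bases of their exons.

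Values in siUSP9X-2 moved with transcript length. It was the highest siUSP9X library for 37 of the 67 genes, the lowest for 21 and in between for 9. Its CPM was 2.26 times the mean of the other 4 siUSP9X libraries at the median of the CHD6 to CHD9 genes, 2.05 times at that of the KMT2 genes, and 0.363 times at that of class IIb and IV deacetylases. Median transcript lengths of these groups were 11.2, 13.7 and 2.96 kb. The low value of the last group was not usual for its length. Over all genes of 2 to 4 kb the median log2 ratio of siUSP9X-2 to the other siUSP9X libraries was -0.13. KDM1A and KDM1B, at 3.03 and 2.88 kb, were higher in siUSP9X-2, at 1.43 and 1.61 times the mean of the others. Across the 67 genes the log2 ratio of siUSP9X-2 to the other siUSP9X libraries and log2 length had a Pearson r of 0.586 and a Spearman rho of 0.601, and over 13862 genes r was 0.504 and rho 0.538. These are correlations across genes of the same libraries, given as a description. Genes of similar length could still differ widely in siUSP9X-2. KDM6B (6.71 kb, 62.4% G and C bases) had 0.73 times the mean of the other 4 siUSP9X libraries. KMT2E (6.87 kb, 43.2% G and C bases) had 2.05 times that mean. The part of G and C content was not tested, and the length offset used below does not include it. The siCtrl libraries differed along length as well, with r of 0.523 in replicate 1 and -0.544 in replicate 2 over the 67 genes.

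The 67 genes were long, with a median transcript of 5.79 kb against 2.96 kb for all genes. Their fold changes followed length too, with r of 0.616 over the 67 genes and 0.467 without siUSP9X-2, against 0.345 and 0.153 over all genes. Among genes with transcripts over 10 kb, 26.0% of all genes rose without siUSP9X-2, as did 5 of the 8 genes described here. Between 8 and 10 kb these were 22.1% and 4 of 8, and between 6 and 8 kb 19.7% and 4 of 14. From 4 to 6 kb, the bin with the most of these genes, they were 17.1% and 2 of 19, from 2 to 4 kb 10.4% and 1 of 16, and under 2 kb 5.61% and 0 of 2. Differences along length and differences between the siRNAs cannot be told apart for a single gene here. Values with an offset that removes each library's trend with length over all genes, chosen after the data were seen, are therefore given as well. With that offset and all 10 libraries, fold changes of the 67 genes still followed length, with r of 0.296. Over all genes r was then -0.0259.

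With the length offset and all 10 libraries, 7 of the 67 genes were higher (against 6.14% of all genes) and 3 lower (against 6.82%). KDM7A, KDM5B, EZH1, CHD7, CHD9 and KDM1B kept their calls, with log2 fold changes of 1.03, 0.84, 0.29, 0.57, 0.65 and -1.05. KDM6B was not called (0.37, edgeR adjusted p = 0.208), and KMT2C and SMARCC1 were called higher and SETD7 and KDM3B lower. The median log2 fold change of the 67 genes was 0.01, as was that of all genes. By class it was 0.18 for the CHD genes, 0.0038 for the KMT2 and SETD1 genes, 0.13 for the demethylases, -0.08 for the SMARC genes and -0.16 for the deacetylases. Without siUSP9X-2 as well, 13 were higher (against 11.6%) and 4 lower (against 14.8%), and KDM6B was called again (0.53, edgeR adjusted p = 0.000525). HDAC2, CHD2 and KDM5A were not called in that fit (0.15, 0.17 and 0.15).

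**Figure D3:**
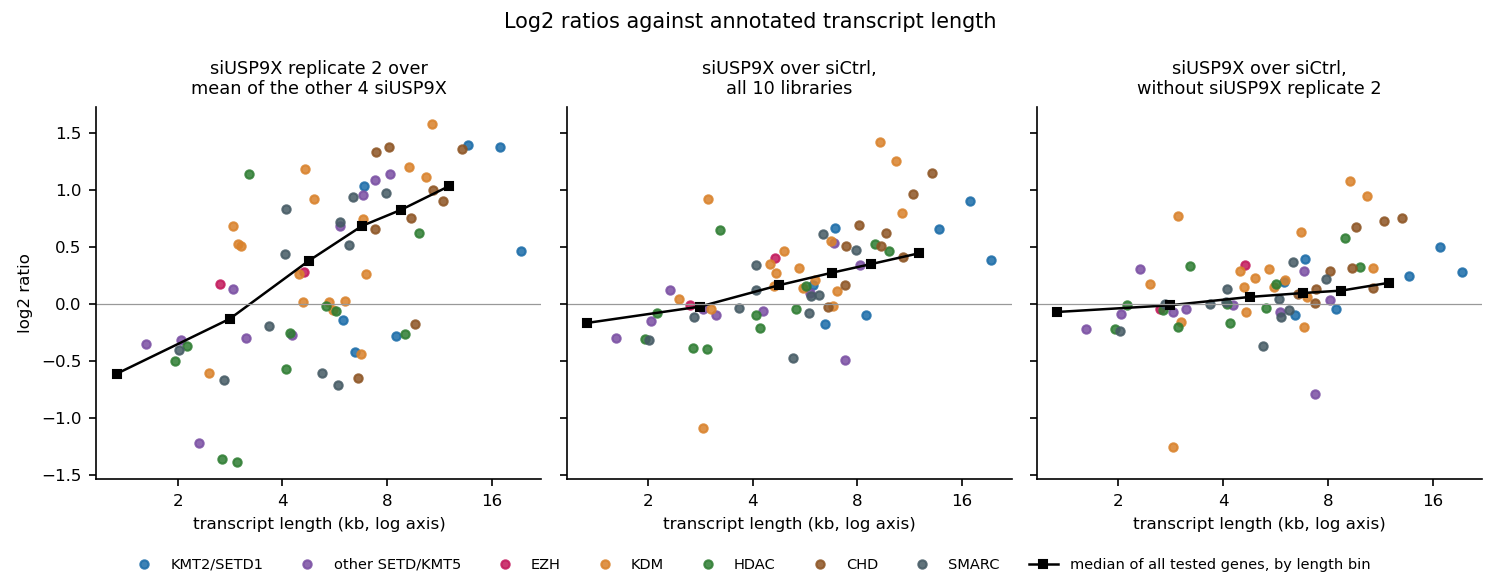
Log2 ratios (y axes) against annotated transcript length (x axes, kb, log scale) of 67 genes coloured by class; the left panel sets siUSP9X replicate 2 against the other 4 siUSP9X libraries, and the others show siUSP9X over siCtrl with and without that library. Squares joined by lines are medians of all tested genes in 6 length bins, which climb from -0.61 under 2 kb to 1.03 over 10 kb in the left panel and from -0.07 to 0.18 in the right one.

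**Figure D4:**
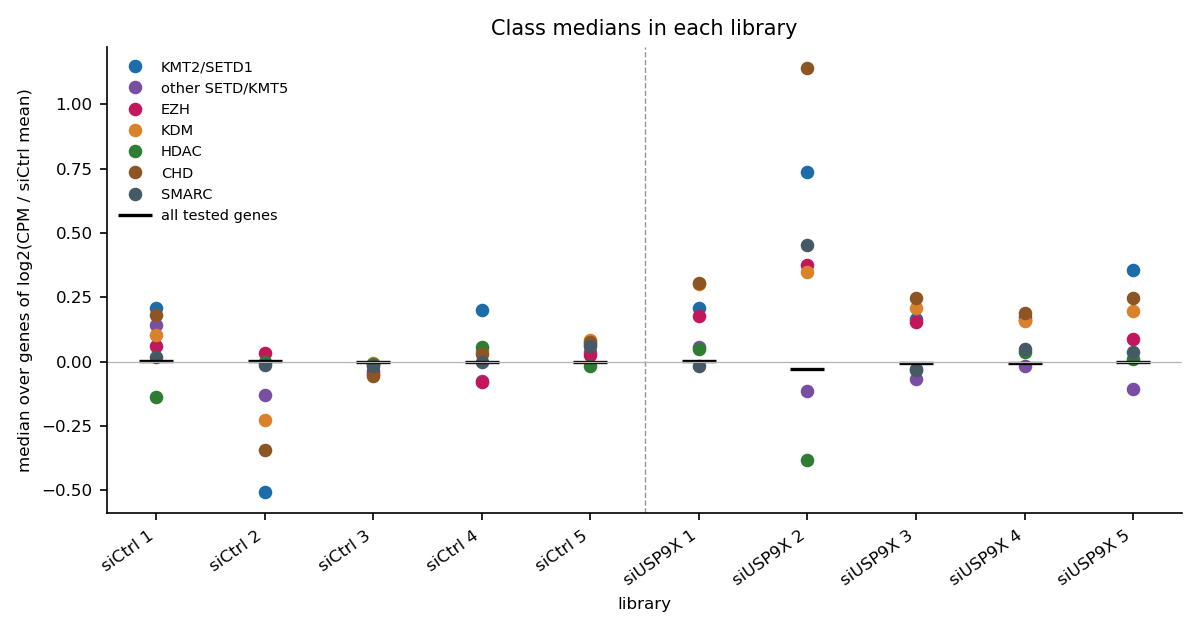
Median over the genes of each class of log2(CPM over the siCtrl mean) (y axis) in each library (x axis), with dashes for all tested genes. The CHD median is 1.14 in siUSP9X replicate 2 and 0.19 to 0.31 in the other siUSP9X libraries, while the KMT2 and SETD1 median falls to -0.51 in siCtrl replicate 2.

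Class by class, the CHD median was positive in all 5 siUSP9X libraries, but it was also 0.18 in siCtrl replicate 1 and -0.34 in siCtrl replicate 2 on the log2 scale. The KMT2 and SETD1 median was 0.16 to 0.35 in the 4 siUSP9X libraries other than siUSP9X-2 and reached 0.21 in siCtrl replicate 1. Hence the class medians of 4 siUSP9X libraries overlapped the siCtrl range for the KMT2 and SETD1 genes, and stayed above it for the CHD genes by less than the spread between siCtrl libraries.

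Levels per length, as mean siCtrl CPM per kb of transcript, differed widely among the enzymes. HDAC1 led with 114 CPM per kb, followed by KDM1A with 48.0, SMARCC1 with 45.2, SMARCA1 with 44.1, SMARCC2 with 42.6 and HDAC3 with 40.7. KDM1B had 24.0 CPM per kb in siCtrl and 10.03 in the 4 siUSP9X libraries without siUSP9X-2. EZH2, at 25.9, exceeded EZH1, at 5.45. KDM7A and HDAC4 were among the lowest, at 0.939 and 0.534, so the largest increase on the log2 scale was in a gene of low level. SMARCC2 shares 514 bases of exon with MYL6 on the opposite strand, which makes its level less certain if counting ignored strand.

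Ratios within a library compare close relatives. The pairs were chosen after their values were seen, so the ratios are a description without a test. KDM1A to KDM1B was 1.89, 2.38, 2.15, 2.18 and 2.005 in siCtrl and 4.37, 3.99, 3.99, 4.94 and 4.84 in siUSP9X. EZH1 to EZH2 was 0.335 to 0.398 in siCtrl and 0.475 to 0.520 in siUSP9X. HDAC2 to HDAC1 was 0.547 to 0.623 against 0.680 to 1.49, SMARCC1 to SMARCC2 was 1.504 to 1.85 against 2.03 to 2.99, and KDM5B to KDM5C was 0.226 to 0.300 against 0.408 to 0.948. These 5 ratios did not overlap between groups, and siUSP9X-2 lay within the range of the other siUSP9X libraries, or just above its lower end, for KDM1A to KDM1B alone. Transcripts of that pair are of similar length (3.03 and 2.88 kb), whereas those of HDAC2 and HDAC1 (9.87 and 2.12 kb), KDM5B and KDM5C (10.3 and 6.03 kb), SMARCC1 and SMARCC2 (6.38 and 4.08 kb) and EZH1 and EZH2 (4.62 and 2.64 kb) differ. The ratios of KMT2A to KMT2B, KDM6B to KDM6A, SMARCA2 to SMARCA4 and SMARCA5 to SMARCA1 did overlap.

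The enzymes work in complexes, and 182 genes of partner subunits and related enzymes were read from the same fit, 179 of them tested. Of these 179 genes 7 rose and 5 fell, where 4.09% of all genes rose and 3.22% fell. Without siUSP9X-2, 27 rose and 22 fell, against 11.9% and 11.5% of all genes in that fit. The partner lists thus stayed near the shares of all genes with all 10 libraries. Among 10 PRC2 partners, JARID2 and MTF2, which guide PRC2 to chromatin, rose (log2 fold change 0.89 ± 0.14 and 1.03 ± 0.15, SE) and PHF19 fell (-0.35 ± 0.08, SE). MTF2 went from 44.3 ± 3.26 to 90.4 ± 21.9 CPM (SD, n = 5 each, edgeR adjusted p = 0.00282). The PRC1 list had 1 increase in 18 genes, CBX6 (0.67 ± 0.14, SE). In the fit without siUSP9X-2, log2 fold changes were 0.75 for JARID2, 0.87 for MTF2, -0.36 for PHF19 and 0.52 for CBX6.

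Of 18 BAF-complex subunits, BRD9 and SS18 fell and BCL7A rose. BRD9, a bromodomain subunit of the non-canonical complex, fell from 156 ± 4.59 to 96.5 ± 6.85 CPM (SD, n = 5 each; log2 fold change -0.69 ± 0.09, SE, edgeR adjusted p = 0.00110). SS18 had -0.51 ± 0.12 and BCL7A 0.71 ± 0.11 (SE). Among 25 corepressor subunits of NuRD, Sin3, CoREST and NCoR, ARID4A (0.94 ± 0.23, SE) and PHF21A (0.55 ± 0.15, SE) rose. In the list of sirtuins SIRT2 fell (-0.53 ± 0.12, SE). Of 10 genes for DNA methylation, TET1, which oxidises methylcytosine, rose from a low level (1.77 ± 0.374 to 4.70 ± 2.85 CPM, SD, n = 5 each). UHRF1, which recruits the maintenance methyltransferase, fell (128 ± 11.7 to 72.5 ± 13.2 CPM, SD, n = 5 each). TET1 moved from a log2 fold change of 1.41 to 0.97 without siUSP9X-2, and UHRF1 from -0.83 to -0.71. The others then had -0.65 (BRD9), -0.61 (SS18), 0.76 (BCL7A), 0.65 (ARID4A), 0.39 (PHF21A) and -0.45 (SIRT2).

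No gene was called with all libraries by edgeR among 12 COMPASS subunits, 8 ISWI partners, 13 subunits of INO80, SRCAP and TIP60 complexes, 14 acetyltransferases, 16 other histone methyltransferases, 12 bromodomain readers and 11 other SNF2 ATPases. In these 7 lists 28 of 86 genes had an unadjusted p under 0.05, a count without a background here. DESeq2 called 9 of the 86 higher and 9 lower, where it called 9.07% of all genes higher and 7.74% lower. The 16 other methyltransferases split without siUSP9X-2, where 6 rose and 5 fell, against 11.9% and 11.5% of all genes. NSD1, NSD3, ASH1L, DOT1L, SETDB1 and SETDB2 had log2 fold changes of 0.27 to 0.49, and SUV39H1, PRMT1, PRMT5, SMYD3 and EHMT1 of -0.23 to -0.38.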

How the data were processed

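RNA was sequenced from 5 siCtrl and 5 siUSP9X libraries, grouped by the treatment label. Per the labels' protocols, libraries were stranded mRNA preparations. The deposited table holds whole-number counts per gene symbol, not normalized. Build hg38, RSEM and DESeq2 appear in the submitters' processing notes without version or role. The aligner, the annotation and any use of strand in counting are not given in the sources used here. Should the counts be rounded RSEM estimates, reads of similar genes were shared out before deposit.

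Counts were tested with edgeR 4.0.16 (R 4.3.3): glmQLFit with robust estimation, glmQLFTest, TMM factors, filterByExpr with a minimum count of 10, group as the only term, two-sided, Benjamini-Hochberg over all genes tested. CPM are per 1000000 counts of the TMM-scaled total. Symbols were matched to GENCODE release 29 for coordinates and for 1 transcript length per gene, and such lengths may not be those of the isoforms present. The 3′ untranslated region searched was the longest annotated one of each gene in the GENCODE basic set. It can come from a transcript other than the one whose length is given. For SETD6 it has 2152 bases beside a transcript length of 2042 bases. Log2 ratios of libraries used a pseudocount of 0.5 CPM. The length offset was a loess of span 0.5 on log2 length in each library. The test was checked on simulated counts.

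The genes, classes and partner lists were chosen with earlier results of these data known. Genes named in full were those past the threshold, the smallest p and highest CPM of each class, and up to 8 whose sign or call changed most without siUSP9X replicate 2; of the partner lists, up to 3 called genes each. Other genes were named after their values were seen. Alternatives were other size factors (DESeq2, upper-quartile, library totals), no filter, 5 CPM in 5 libraries, DESeq2 1.42.0, limma-voom (limma 3.58.1) with and without library weights, the replicate block, a threshold of 0.01 and each library left out. The length offset and the block without replicate number 2 were added after the data were seen.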

Additional observations from a re-analysis of the deposited data

Results flagged for a closer look

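Within the groups of 5 libraries, 44 sets of CPM values of the 22 genes named by rule were checked with Dixon's test at 95%. By chance this test flags about 1 in 20. Some of the 22 genes, however, were named because their sign or call changed most without siUSP9X-2. They include KMT2C, KMT2E, SETD5, SETD7, KDM5A, SMARCC1 and HDAC9. That choice favoured flags in siUSP9X-2, so the number of flags cannot be judged against the chance rate. A single library stood apart from the other 4 in 16 sets, and in 14 of them it was siUSP9X-2, each time as the highest of its group. Demethylases with such a value were KDM1B (46.5 CPM against 27.2 to 30.5), KDM7A (42.8 against 14.8 to 20.1), KDM5B (222.6 against 96.0 to 110.3) and KDM5A (284 against 85.4 to 102.5). Genes with such a value in the EZH, KMT2 and SETD classes were EZH1 (38.9 CPM against 30.5 to 32.7), KMT2C (199 against 71.1 to 84.7), KMT2E (102.9 against 42.3 to 58.0), SETD5 (339.0 against 161.9 to 189) and SETD7 (82.5 against 34.7 to 41.9). Among remodelers and deacetylases the values were 81.8 CPM in CHD7 (others 39.0 to 49.8), 230.9 in CHD9 (70.7 to 103.7), 395 in CHD3 (226 to 265), 712 in SMARCC1 (343.0 to 411) and 48.2 in HDAC9 (20.1 to 23.5).

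The other 2 values were in siCtrl. KDM7A had 11.3 CPM in siCtrl replicate 1 against 7.56 to 8.59 in the rest, and KMT2D had 87.3 CPM in siCtrl replicate 2 against 171 to 190 in the rest. The KMT2D value is the lowest of all 10 libraries. The part of transcript length, G and C content or RNA quality in these values was not tested.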

How the results depend on the processing

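Size factors by DESeq2, upper quartiles or library totals, the 5 CPM filter and limma-voom gave counts of called genes within 1.5 times of those reported, for the 67 genes and for all genes. Genes called higher and lower among all genes were 1264 and 1078 with DESeq2, 2473 and 2444 with limma-voom library weights, 102 and 136 at a threshold of 0.01, and 1674 and 1620 without siUSP9X-2. Without any 1 of the other 9 libraries they ranged from 170 to 516 and from 189 to 375. With the length offset 945 were lower, and with it and without siUSP9X-2 1624 were higher and 2080 lower. Among the 67 genes, calls higher and lower were 14 and 2 with DESeq2 and 23 and 9 with library weights. With no filter 3 were higher, and at 0.01 0 were higher. Without siUSP9X-2 there were 16 and 3, and without any 1 of the other libraries 2 to 6 and 1. The length offset gave 3 lower, and 13 and 4 without siUSP9X-2. The cause of these moves was not tested, beyond the smaller number of libraries where some were left out.

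Whether the replicate numbers pair the libraries is not settled here. Same-numbered libraries had correlations of deviations from the group mean of -0.367, -0.419, -0.029, 0.228 and -0.038. Between siCtrl replicate 1 and siUSP9X-2 the correlation was 0.571. The group means include siUSP9X-2, which stood apart along length, so these values cannot exclude a pairing. With the replicate block 0 of the 67 genes were called in either direction, and 34 and 57 of all genes were. With the block and without replicate number 2, 15 and 5 of the 67 were called and 1582 and 1856 of all genes.

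Among the 22 genes named by rule, signs turned only in genes that were not called, and genes outside that rule are not listed. With the length offset these were KMT2D (-0.059), EZH2 (0.051), HDAC1 (0.014) and CHD3 (-0.105), and with the offset and without siUSP9X-2 they were HDAC1 (0.0047), CHD3 (-0.108) and KDM4C (-0.128). With library weights CHD3 had -0.024 and KDM4C -0.029, and with the block without number 2 these had -0.057 and -0.163. EZH2 ran from -0.042 (without siUSP9X-2) to 0.018 over fits without 1 library, with 0.0097 and 0.018 without siCtrl replicate 1 or 2 and 0.0048 and 0.013 without siUSP9X replicate 3 or 5. KDM4C ran from -0.074 without siUSP9X-2 to 0.414 without siUSP9X replicate 4.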
